A study of Mus musculus with 28 samples.

Results

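The H3K27ac peaks around 9 genes of the TGF-β pathway were followed through TGF-β-induced epithelial to mesenchymal transition (EMT) with and without ERK inhibition. The genes encode the ligands Tgfb1, Tgfb2 and Tgfb3, the receptors Tgfbr1, Tgfbr2 and Tgfbr3, and the signal carriers Smad2, Smad3 and Smad4. A peak was assigned to a gene when its summit lay within 100 kb of a protein-coding transcription start site of that gene and no other start site was nearer. This gave 1459 of the 893719 peaks in the 15 lists, of which 228 were promoter peaks (summit within 1000 bp of a start site) and 1231 were distal. Overlapping peaks of all libraries were merged, which left 146 regions of 89050 for the 9 genes, 13 of them promoter regions and 133 distal. A region is named here by the distance of its summit from the first start site of the gene, upstream or downstream.

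The cells were NMuMG, an untransformed epithelial line from mouse mammary gland, here of the subclone NMuMG/E9. They were untreated (0h), or given TGF-β (recombinant human TGF-β1) at 2 ng/ml for 4h or 24h, and all ERKi cells received TGF-β as well. ERKi cells were given the MEK inhibitor UO126 at 25 µM 30 min before TGF-β, and the 4h and 24h cells the solvent DMSO. There were 3 ChIP-seq libraries in each of the 5 conditions, and no untreated cells with inhibitor alone were analysed here. The cells are a single subclone and nothing in the labels says that replicates were separate cultures, so p-values measure only the spread between these libraries, which may be technical. ERKi 4h replicate 1 carries a library number in its peak names that is out of the order of the others.

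TGF-β ligands are secreted as latent dimers. Active ligand binds Tgfbr2, which then phosphorylates Tgfbr1, and Tgfbr1 phosphorylates Smad2 and Smad3. These join Smad4 and move to the nucleus, where they act on target genes. Tgfbr3, or betaglycan, is a co-receptor without a kinase that presents ligand, above all TGF-β2, to Tgfbr2. TGF-β also activates ERK through MEK. Acetylation of histone H3 at lysine 27 marks active promoters and enhancers, so the peaks show where regulatory DNA near these genes was active, not how much RNA was made.

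The DNA is given for 5 of the regions that differed between conditions, 300 bases centred on the summit, in mm9 on the plus strand. They are some of the regions that fell near Tgfbr3 and Tgfb2, were lower with the inhibitor in Smad3, or had peaks in Smad3 under TGF-β only. Other regions of these kinds are not shown. Capitals mark matches to the motifs listed later on.
Tgfbr3, 6.1 kb upstream, intergenic, chr5:107724627-107724926: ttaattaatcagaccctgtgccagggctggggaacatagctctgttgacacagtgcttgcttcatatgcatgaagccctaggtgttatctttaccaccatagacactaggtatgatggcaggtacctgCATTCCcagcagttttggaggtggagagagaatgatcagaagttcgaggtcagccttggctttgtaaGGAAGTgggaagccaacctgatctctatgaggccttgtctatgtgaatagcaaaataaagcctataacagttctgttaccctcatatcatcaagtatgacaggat
Tgfbr3, 20.8 kb downstream, intron, chr5:107697690-107697989: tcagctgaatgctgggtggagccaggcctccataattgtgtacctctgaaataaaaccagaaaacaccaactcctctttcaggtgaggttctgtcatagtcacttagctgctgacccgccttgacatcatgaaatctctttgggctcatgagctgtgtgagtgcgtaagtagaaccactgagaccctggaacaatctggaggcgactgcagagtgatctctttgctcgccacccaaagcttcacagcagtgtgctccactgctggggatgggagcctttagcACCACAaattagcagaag
Tgfb2, 118.3 kb downstream, intergenic, chr1:188411412-188411711: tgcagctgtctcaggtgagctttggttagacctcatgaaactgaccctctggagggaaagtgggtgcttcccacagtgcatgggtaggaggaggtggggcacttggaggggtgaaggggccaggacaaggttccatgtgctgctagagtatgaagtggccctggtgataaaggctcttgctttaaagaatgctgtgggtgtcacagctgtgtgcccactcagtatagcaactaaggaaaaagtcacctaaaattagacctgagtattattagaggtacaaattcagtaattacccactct
Smad3, 51.7 kb downstream, intron, chr9:63553986-63554285: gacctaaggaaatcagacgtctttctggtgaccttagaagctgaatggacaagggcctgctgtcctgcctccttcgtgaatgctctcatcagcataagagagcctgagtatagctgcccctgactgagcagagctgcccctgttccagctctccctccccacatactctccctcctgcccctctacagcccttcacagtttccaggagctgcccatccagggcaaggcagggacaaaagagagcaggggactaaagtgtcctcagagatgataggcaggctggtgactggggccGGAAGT
Smad3, 56.2 kb downstream, intron, chr9:63549491-63549790: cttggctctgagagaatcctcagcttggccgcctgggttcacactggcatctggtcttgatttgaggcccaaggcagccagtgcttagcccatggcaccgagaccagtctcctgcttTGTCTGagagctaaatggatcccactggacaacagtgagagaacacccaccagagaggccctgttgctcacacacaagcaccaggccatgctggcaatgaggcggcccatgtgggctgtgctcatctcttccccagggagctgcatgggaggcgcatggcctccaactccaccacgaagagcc
The Tgfbr3 upstream window held matches to the ETS and TEAD motifs, the Tgfbr3 intron window a match to RUNX and the Smad3 window at 51.7 kb a match to ETS. The Smad3 window at 56.2 kb held a CAGACA match on the minus strand, printed as TGTCTG. The Tgfb2 window held none of the 8 motifs.

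The lists held 50445 to 69180 peaks per library and no read totals, so the depth is unknown. The pileup at each summit, which is the number of fragments over that base, was recovered from the deposited fold enrichment and p, with a median of 38 to 57 per library. It was scaled between libraries by log2 factors from -0.38 to 0.44, and pileups below are scaled fragments. The labelled cell type was checked by promoter peaks. Those of Cdh1, Krt8, Krt18 and Krt19 were called in 15 of 15 libraries and that of Cldn4 in 11, whereas Epcam, Esrp1, Grhl2 and Cldn3 had none. No endothelial marker of 4 had a promoter peak, and of 5 leukocyte markers Cd14 had one in 15 libraries and the others had none.

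The genes differed widely in how much acetylated DNA surrounded them. Smad3, which carries much of the transcriptional response to TGF-β, had 46 regions, Tgfbr2 26, Tgfb2 24 and Tgfbr3 24. Tgfbr1 had 12, Smad2 9 and Smad4 3, while Tgfb1 and Tgfb3 had a promoter region each. Of the 133 distal regions, 65 had their summit in an intron, 65 were intergenic and 3 lay in a UTR. In 40 regions a peak was called in all 15 libraries, 13 at promoters and 27 distal, and the test of pileup was run on these. A peak counted as distal was called near Tgfb1 in 6 libraries and near Smad4 in 3, and near Tgfb3 in none. Those of Tgfb1 lay within its promoter region, with summits over 1000 bp from the start site. Of those of Smad4, only the one in ERKi 24h replicate 3 lay outside the promoter regions.

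All 9 genes had a promoter region with a peak in all 15 libraries. The pileup at the highest promoter region of each gene was largest at Tgfbr2, the ligand-binding receptor, with means of 175 to 250 over the conditions. It was followed by Smad3 with 157 to 183. Below these came Tgfbr1 (103 to 143), Smad2 (109 to 135), Smad4 (86.1 to 128) and Tgfb1 (89.6 to 101), where each gene's range overlapped that of its neighbour in this order. Tgfb2 (52.0 to 57.9) was lower, and Tgfb3 (33.7 to 47.4) and Tgfbr3 (26.4 to 41.4), whose ranges overlapped, were the lowest. Pileup depends on the shape of a peak as well as on the mark, so the order is a description.

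**Figure D1:**
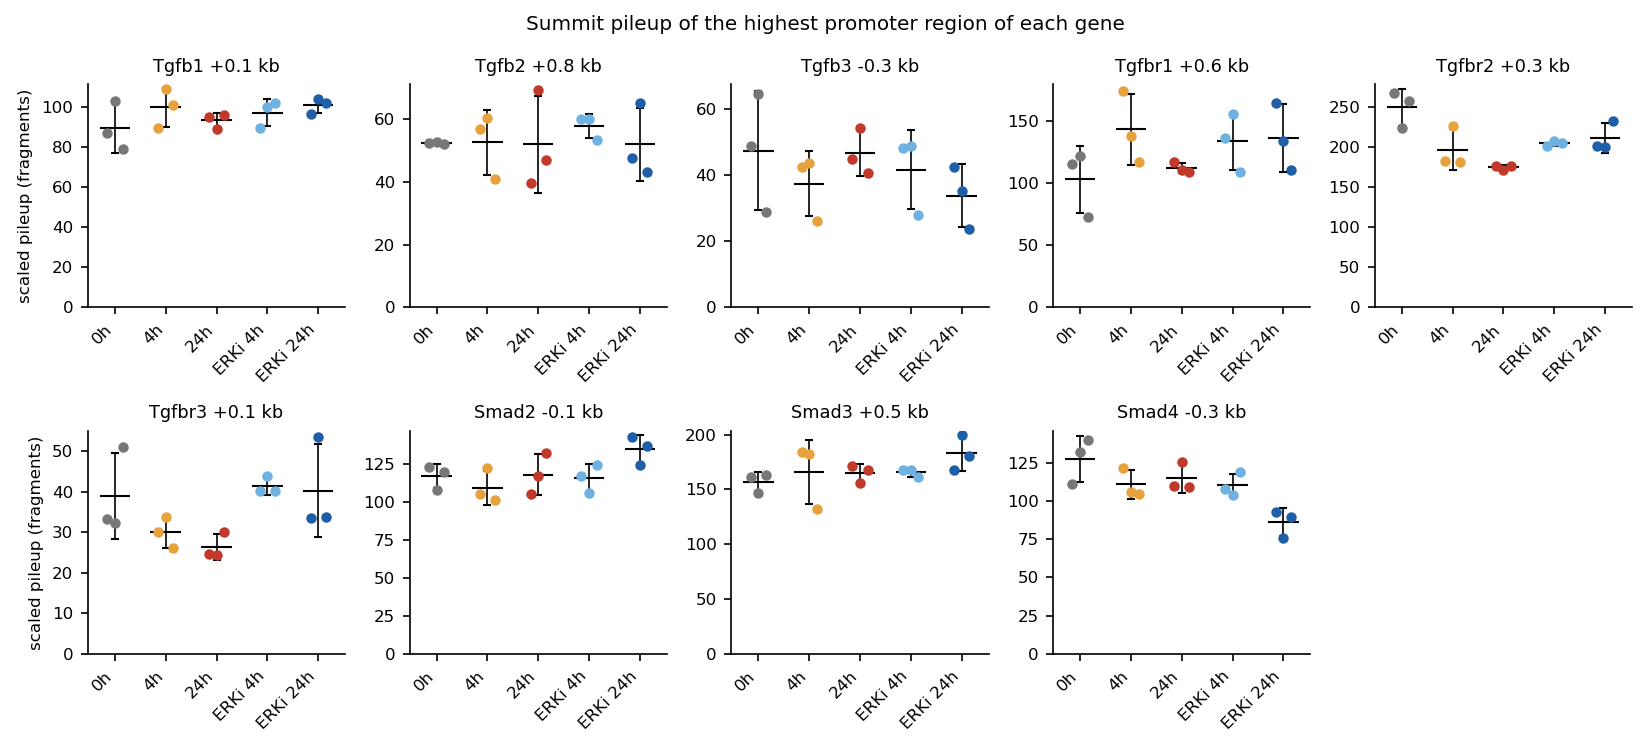
Scaled summit pileup (y axis, fragments) in the 5 conditions (x axis) for the highest promoter region of each gene, with points for libraries, lines for means and bars for SD (n = 3); a minus in a panel title means upstream of the first start site. The Tgfbr2 promoter fell from a mean of 250 at 0h to 175 at 24h, while the Smad3 means stayed between 157 and 183.

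The first question was how these regions differed after TGF-β without the inhibitor. The 0h cells are labelled untreated, and TGF-β cannot be told apart here from the solvent and the time in culture. In the test of the 40 regions, 2 were higher than at 0h and 1 was lower. Those are 5% and 2.5% of the members, against 3.47% higher and 0.167% lower among all 26934 regions tested. The higher ones were both near Tgfbr1 and the lower one was near Tgfbr3. Replicate numbers were taken to pair the libraries, and with the replicate number as a block 13 members passed (32.5%, 5 higher and 8 lower), against 17.1% of all regions. The members that passed only with the block included the Tgfbr1 promoter region 0.6 kb downstream (higher) and the Tgfbr2 promoter (lower), and 3 distal regions of Tgfbr2 (all lower). The median log2 difference of the 27 distal members was -0.05, and that of all 15070 distal regions tested was 0.03.

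At 24h of TGF-β the balance lay on the side of loss. Of the 40 members, 7 were lower than at 0h (17.5%) and 2 higher (5%), whereas over all regions 6.55% were lower and 10.7% higher. The 7 comprised 3 regions of Tgfbr3, 3 of Tgfbr2 and 1 of Tgfb2, and the 2 higher were the same pair near Tgfbr1 as at 4h. With the replicate block, 14 were lower and 4 higher (45% of members), against 35.9% of all regions in either direction. The median log2 difference of distal members was -0.36 with 20 of 27 below 0, and that of all distal regions was 0.03. At promoters the members' median was 0.01.

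Calls that were present in all 3 libraries of a condition and in none of another were counted as well. Such peaks were gained by 1 member and lost by 2 at 4h, of 116 members with a peak in these libraries (0.862% and 1.72%), against 1.65% and 0.565% of all regions. At 24h, 3 were gained and 11 lost of 116 (2.59% and 9.48%), against 5.98% and 2.52% of all regions. Of the 11 lost, 5 were near Tgfbr3, 2 near Tgfbr2, 2 near Tgfb2, and 1 each near Smad2 and Tgfbr1. A peak that was not called is not a level of 0, since the call also depends on the local background. Some of these regions lay less than 1000 bp from regions with peaks in all 15 libraries. With regions merged within 1000 bp, 1 member was gained and 6 lost at 24h, and 0 and 1 at 4h. With peaks of −log10 q of at least 10 there were 0 and 4 at 24h, and 2 and 1 at 4h. The shares of all regions under these settings were not computed.

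The number of distal peaks per gene counts the same calls by library. Near the 9 genes together there were 90.3 ± 7.51 distal peaks (SD, n = 3) at 0h, 83.7 ± 15.5 at 4h and 67.3 ± 4.16 at 24h. With the inhibitor there were 86.7 ± 10.3 at 4h and 82.3 ± 10.5 at 24h. At 4h the libraries of both groups did not overlap for 1 gene, Tgfbr1, which had more peaks, and 5.66% of all genes with a distal peak had more and 1.38% fewer in this sense. At 24h Tgfbr1 had more and Tgfbr2 and Tgfbr3 fewer, and the shares of all genes were 15.6% and 5.14%. For 3 libraries against 3 the exact permutation test cannot give a p below 0.1, and that was its value for each of these genes. With promoters taken as within 2500 bp of a start site, none of the 9 genes had more at 24h and 2 had fewer.

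**Figure D2:**
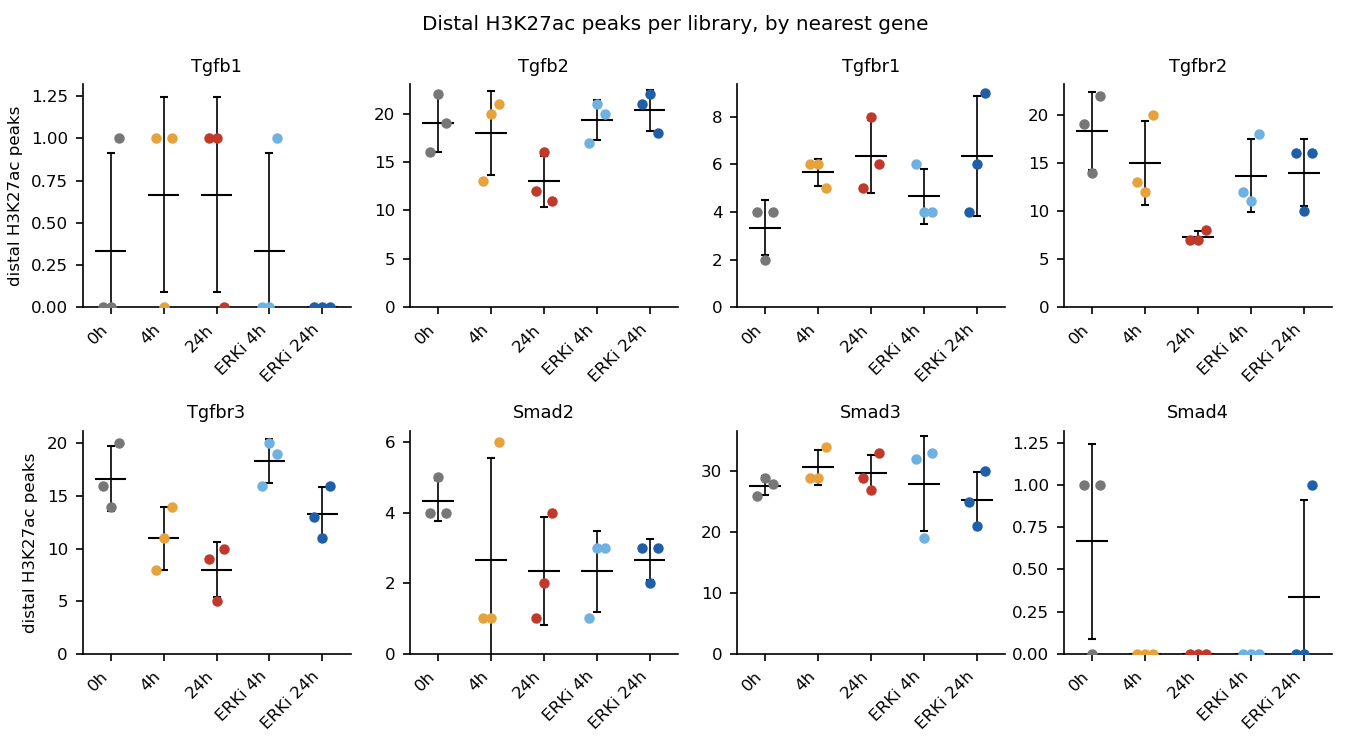
Number of distal H3K27ac peaks (y axis) assigned to each gene in each library of the 5 conditions (x axis), with lines for means and bars for SD (n = 3); Tgfb3 had none and is not drawn. Tgfbr2 went from a mean of 18.3 at 0h to 7.33 at 24h and Tgfbr3 from 16.7 to 8, while Smad3 stayed between 25.3 and 30.7.

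The second question was what ERK inhibition changed beside TGF-β. At 4h no member passed the test without the block, and over all regions 0.00743% were higher and 0.223% lower with the inhibitor. At an unadjusted p under 0.05, 5 of the 40 members differed, 1 higher (2.5%; Tgfbr3, 6.1 kb upstream) and 4 lower (10%; 3 of Smad3 and 1 of Tgfbr2), against 1.69% higher and 3.81% lower among all regions at that threshold. Without ERKi 4h replicate 1, the library with the number out of order, the count past the threshold stayed at 0. With the replicate block 4 members passed (10%), all lower, against 4.08% of all regions. They were the Smad3 intron regions at 35.5, 51.7 and 80.0 kb and the Tgfbr2 region 43.2 kb upstream. No member was gained in the sense of all libraries against none and 1 of 114 was lost (0.877%), against 0.316% and 0.449% of all regions. With regions merged within 1000 bp, or with peaks of −log10 q of at least 10, 0 were lost.

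At 24h regions of Tgfbr3 and Tgfb2 were higher with the inhibitor and regions in the Smad3 introns lower. In the test, 3 members were higher (7.5%, 2 of Tgfbr3 and 1 of Tgfb2) and 2 lower (5%, both of Smad3) than with DMSO, against 2.99% and 4.14% of all regions. With the replicate block 21 of 40 passed (52.5%, 13 higher and 8 lower), against 27.4% of all regions. The 13 included all 4 tested distal regions and the promoter of Tgfbr3 and 5 of 6 distal regions of Tgfb2. The 8 lower included 5 of 12 distal regions of Smad3, and 2 others of the 12 were higher. In calls, 4 of 113 members were gained (3.54%) and 2 lost (1.77%), against 1.73% and 1.41% of all regions. With regions merged within 1000 bp 2 were gained and 0 lost, and so too with peaks of −log10 q of at least 10. The 24h libraries serve both this comparison and that of 24h with 0h, so a value that was by chance low in them enters both, in opposite directions.

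Distal peak numbers with the inhibitor did not overlap those with DMSO for Tgfbr3 at 4h (more), against 1.6% of all genes with more and 1.25% with fewer. At 24h Tgfb2, Tgfbr2 and Tgfbr3 had more, against 4.91% and 3.58% of all genes. The shares of all genes, here and above, include genes with few distal peaks. Genes with numbers of peaks like those of the members were not set apart. Over both times, with libraries exchanged within each time, Tgfbr3 had 6.33 more distal peaks per library with the inhibitor. This gave an exact permutation p of 0.005, the lowest that these libraries allow, and 0.89 after adjustment over 12018 genes. The corresponding difference for Tgfb2 was 4.33 (exact permutation p = 0.065). No gene passed after adjustment, and 4.85% of genes had an exact p of at most 0.05. Whether the inhibitor's effect differed between 4h and 24h was tested in limma as an interaction, and 0 of the 40 members and 0 of all regions passed. The lowest unadjusted p among members was 0.00846, for the Tgfbr3 intron region at 20.8 kb, where the difference between the effects was 1.11 on the log2 scale, and 2 of the 40 (5%) had an unadjusted p under 0.05, against 5.38% of all regions.

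**Figure D3:**
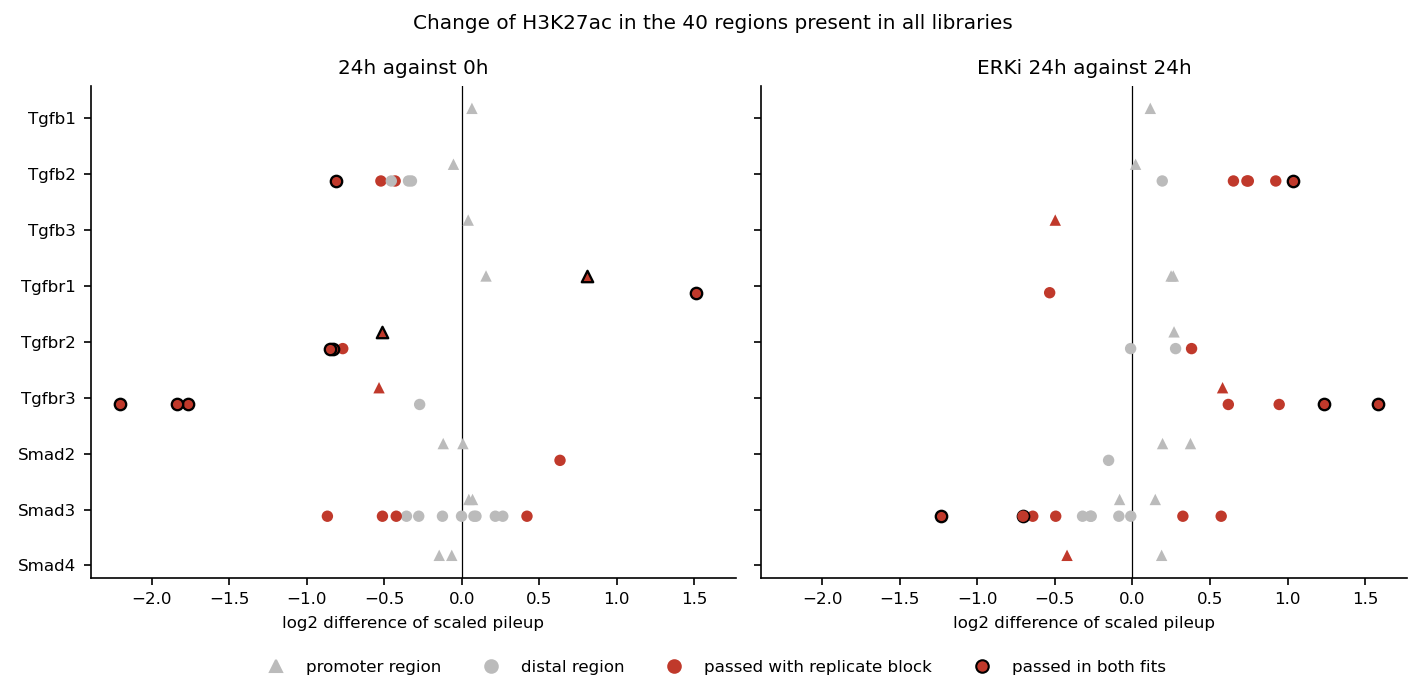
Log2 difference of scaled pileup (x axis) in each of the 40 regions with a peak in all libraries, by gene (y axis), for 24h against 0h (left) and ERKi 24h against 24h (right), with triangles for promoter and circles for distal regions. Red points passed with the replicate block and black outlines mark those that also passed without it; Tgfbr3 regions reach -2.20 on the left and 1.58 on the right, and both panels share the 24h libraries.

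Among the ligands, the promoters of Tgfb1, Tgfb2 and Tgfb3 passed in none of the 4 comparisons without the block. The Tgfb1 promoter had a mean of 89.6 before TGF-β, 99.9 after 4h and 93.3 after 24h. The Tgfb2 promoter had 52.4, 52.7 and 52.2 in the 3 libraries at 0h and a mean of 52.0 at 24h. The Tgfb3 promoter ranged from 23.6 to 64.6 over the libraries, and with the block it was lower under ERKi at 24h (log2 difference -0.50, adjusted p = 0.0402), whereas without it the adjusted p was 0.446.

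The changes at Tgfb2 (ENSMUSG00000039239, chr1:188447065-188529871, minus strand) were at distal regions, in introns and beyond the 3′ end of the gene. The intergenic region 118.3 kb downstream (chr1:188410046-188412288) had 59.8, 55.0 and 87.7 fragments at 0h and 50.5, 64.0 and 75.4 at 4h. At 24h it had 25.5, 39.3 and 53.1, all below the 0h libraries. With the inhibitor it had 64.7, 77.0 and 92.7 at 24h, all above those with DMSO. The log2 difference was -0.81 ± 0.27 (SE) for 24h against 0h (adjusted p = 0.0482) and 1.04 ± 0.27 for ERKi against DMSO at 24h (adjusted p = 0.0275). The call for 24h against 0h was lost in 11 of 15 fits that left out a library (log2 differences from -1.06 to -0.53), and kept without 0h replicate 2 or without replicate 3 of 4h, 24h or ERKi 24h. That for the inhibitor was lost without 24h replicate 1 or 2 or ERKi 24h replicate 2 or 3 (0.76 to 1.29 over the 15 fits). The neighbour 123.9 kb downstream had a mean of 45.1 at 24h and 84.8 with the inhibitor, with an adjusted p of 0.0547 without and 1.38e-05 with the block. In the introns, the region 31.3 kb downstream had 19.9, 22.7 and 35.5 fragments at 0h, and that 30.7 kb downstream had 16.2, 21.5 and 28.9. Neither had a peak at 24h with or without the inhibitor, and the latter had none at 4h. Both belonged to a run of regions less than 1000 bp apart that included the one 28.9 kb downstream, where all 15 libraries had peaks. The intron region 28.9 kb downstream had means of 30.4 at 0h and 21.7 at 24h and of 36.8 with the inhibitor at 24h (against 24h, adjusted p = 0.15, with the block 0.00365). Distal peaks of Tgfb2 numbered 12, 16 and 11 at 24h and 21, 22 and 18 with the inhibitor at 24h.

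The co-receptor Tgfbr3 (ENSMUSG00000029287, chr5:107535589-107718648 in mm9, minus strand) showed the largest log2 differences at 24h among the 40 regions with a peak in all libraries. They lay upstream of the gene for 24h against 0h and in its intron for the inhibitor. For 4h against 0h the largest was at Tgfbr1 24.8 kb upstream, and for the inhibitor at 4h at Smad3 51.7 kb downstream. The region 6.1 kb upstream (chr5:107724454-107725113) had 88.5, 74.2 and 84.4 fragments at 0h. It had 40.8, 32.6 and 35.4 at 4h and 18.5, 17.3 and 17.7 at 24h, so that the 3 conditions did not overlap. The fall was 2.28-fold at 4h (log2 difference -1.19 ± 0.21, adjusted p = 0.00329) and 4.6-fold at 24h (log2 difference -2.20 ± 0.21, adjusted p = 3.38e-06). With the inhibitor the libraries had 46.2, 47.6 and 66.8 at 4h and 36.5, 47.0 and 43.2 at 24h, above DMSO at both times and below 0h. The difference passed at 24h (2.35-fold, adjusted p = 0.00198) and not at 4h (log2 difference 0.55, adjusted p = 0.677). The calls at 4h and 24h and with the inhibitor at 24h were kept in all 15 fits that left out a library.

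In the Tgfbr3 intron, the region 20.8 kb downstream (chr5:107697357-107698566) had 115, 73.0 and 133 fragments at 0h and 32.6, 33.5 and 26.0 at 24h. With the inhibitor at 24h it had 72.2, 93.9 and 112, which overlapped the 0h libraries and not those at 24h. The log2 differences were -1.77 ± 0.26 for 24h against 0h (adjusted p = 0.000161) and 1.58 ± 0.26 for ERKi against DMSO (adjusted p = 0.00163). At 4h it had 61.2, 58.0 and 98.6, each below the 0h library of the same number, and it passed with the block (adjusted p = 0.0361) and not without (0.362). The region 17.1 kb downstream fell from a mean of 101 to 28.9 at 24h (log2 difference -1.83 ± 0.29, adjusted p = 0.000248). Its mean at 4h was 62.7 (adjusted p = 0.281, with the block 0.0202). Its mean with the inhibitor was 54.8, above DMSO without passing (adjusted p = 0.0563, with the block 0.000945).

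Peaks 14.4 kb upstream of Tgfbr3 were called in all libraries at 0h (30.2, 29.9 and 34.4 fragments) and 4h (17.7, 21.7 and 23.3) and in none at 24h. With the inhibitor at 24h they were called in all 3, with 35.0, 47.0 and 64.4. The region 221.5 kb downstream likewise had peaks in all libraries at 0h, none at 24h and all under the inhibitor at 24h. The region 6.9 kb upstream had 31.7, 23.9 and 27.8 fragments at 0h, no peak at 24h and a peak in 1 library with the inhibitor at 24h. It lay less than 1000 bp from the region 6.1 kb upstream, which had peaks in all 15 libraries. Distal peaks of Tgfbr3 numbered 16, 14 and 20 at 0h, 8, 11 and 14 at 4h and 9, 5 and 10 at 24h. With the inhibitor they numbered 16, 20 and 19 at 4h and 13, 11 and 16 at 24h. The Tgfbr3 promoter had a mean of 38.9 before TGF-β, 30.0 at 4h, 26.4 at 24h and 40.3 with the inhibitor at 24h, which passed only with the block (adjusted p = 0.044 for 24h against 0h and 0.036 for the inhibitor). Another region of Tgfbr3 was higher at 24h. It lay 201.4 kb downstream of the first start site and had 18.4, 23.9 and 13.3 fragments at 0h, 54.6, 40.5 and 68.7 at 24h and 78.9, 47.0 and 75.4 with the inhibitor at 24h. As a library at 4h had no peak there it was tested only with missing peaks set to the lowest pileup of their list (log2 difference 1.56 for 24h against 0h, adjusted p = 0.00668).

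**Figure D4:**
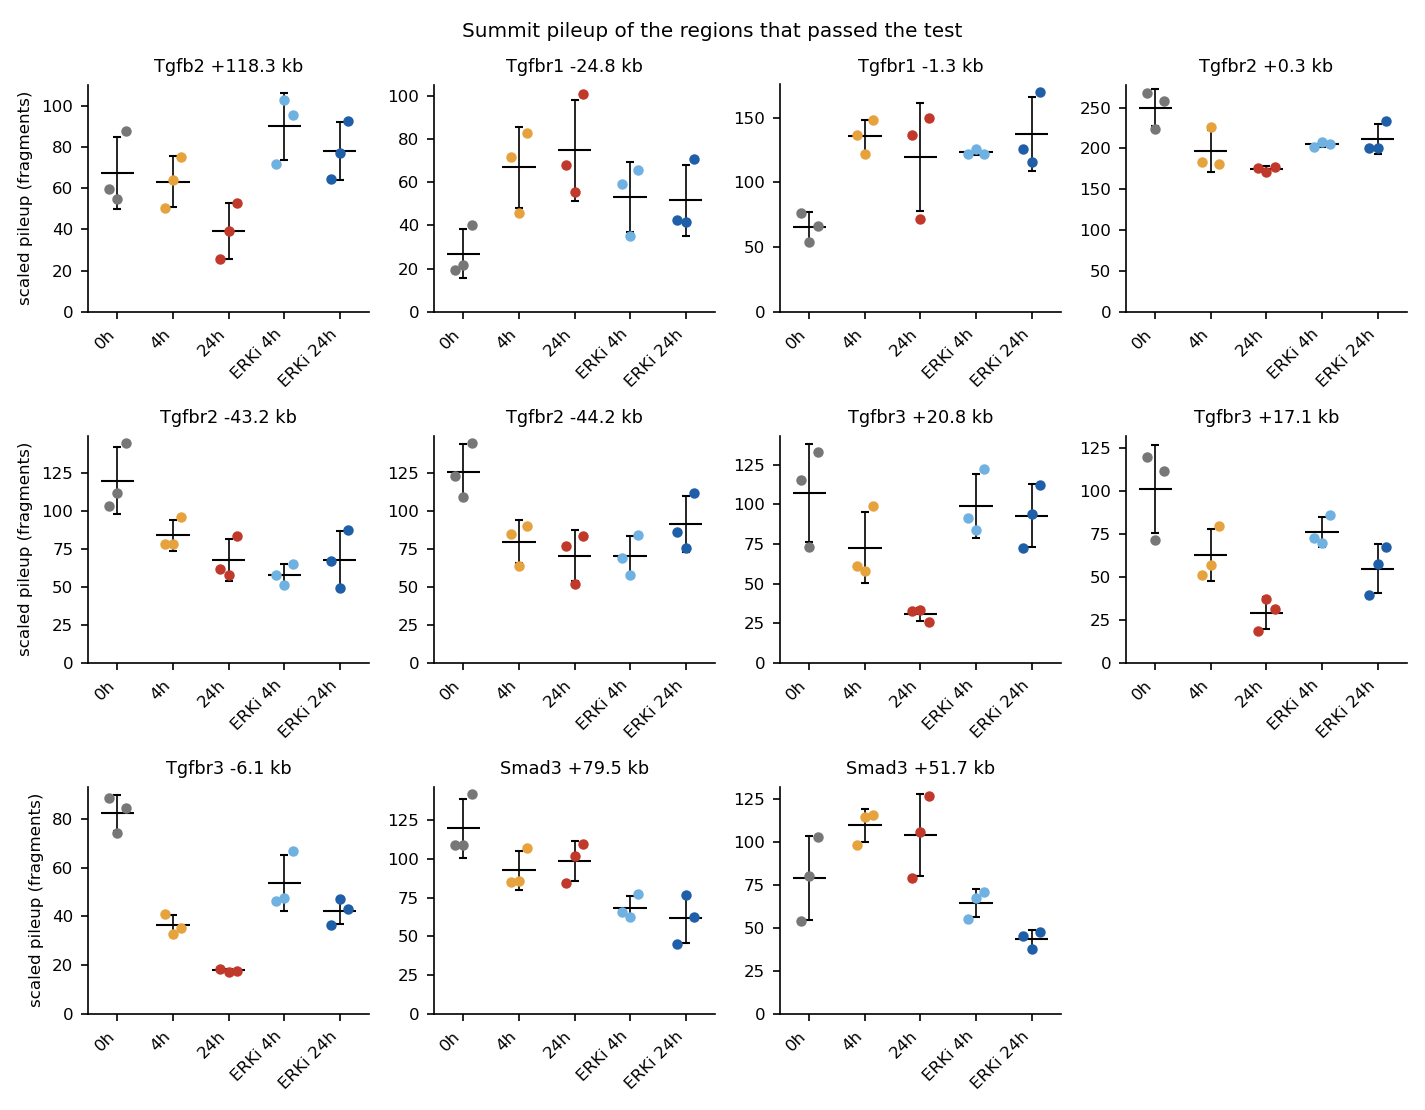
Scaled summit pileup (y axis, fragments) by condition (x axis) for the 11 regions that passed the test in at least 1 comparison, with points for libraries, lines for means and bars for SD (n = 3); plus and minus in a title mean downstream and upstream of the first start site. The 3 Tgfbr3 regions drop at 24h to means of 30.7, 28.9 and 17.9 and are higher with the inhibitor, while the Smad3 region at 51.7 kb is lowest with the inhibitor at 24h (43.7).

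Tgfbr2 (ENSMUSG00000032440, chr9:115993415-116084383, minus strand), the receptor that binds the ligand, was lower at 24h at its promoter and in a pair of regions far upstream. Its promoter region (chr9:116083155-116085088) had 268, 224 and 258 fragments at 0h, 183, 226 and 181 at 4h and 176, 171 and 177 at 24h. The fall to 24h was 1.43-fold (log2 difference -0.51 ± 0.13, adjusted p = 0.00794), and the call was kept in all 15 fits that left out a library. With the inhibitor at 24h it had 201, 200 and 233, all above DMSO at 24h and not past the threshold (log2 difference 0.27, adjusted p = 0.239, with the block 0.0546). The region 44.2 kb upstream fell from 123, 109 and 145 at 0h to 76.6, 52.0 and 83.3 at 24h (log2 difference -0.85 ± 0.23, adjusted p = 0.0133). Its neighbour 43.2 kb upstream fell by 0.83 (adjusted p = 0.0148). Both calls were lost without 0h replicate 3 or 24h replicate 2, and that at 43.2 kb also without 24h replicate 1, with log2 differences between -0.99 and -0.65 over all such fits.

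At 24h the region 44.2 kb upstream had a mean of 91.4 with the inhibitor against 70.7 with DMSO, and passed with the block (adjusted p = 0.0228). Its neighbour 43.2 kb upstream had 67.9 against 67.6, and whether the inhibitor's effect differed between the neighbours was not tested. Farther out, the region 57.2 kb upstream had 45.7, 40.7 and 60.0 fragments at 0h, no peak at 24h and 11.9, 15.7 and 21.2 with the inhibitor at 24h. That places the inhibitor libraries below every 0h library. A neighbour of that region less than 1000 bp away, 59.3 kb upstream, had a peak in 1 library at 24h. The region 13.8 kb upstream had 53.1, 49.1 and 83.3 at 0h, no peak at 24h and a peak in 2 libraries with the inhibitor at 24h. It lay less than 1000 bp from the region 11.7 kb upstream, which had peaks in all 15 libraries. Distal peaks of Tgfbr2 numbered 19, 14 and 22 at 0h, 7, 7 and 8 at 24h and 16, 10 and 16 with the inhibitor at 24h.

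Tgfbr1 (ENSMUSG00000007613, chr4:47366094-47427803, plus strand) encodes the signalling kinase of the receptor pair, and acetylation rose upstream of its promoter. The intergenic region 24.8 kb upstream had 19.2, 21.5 and 40.0 fragments at 0h. It had 71.8, 45.9 and 82.8 at 4h and 67.8, 55.5 and 101 at 24h, all above the 0h libraries. The rise was 2.55-fold at 4h (log2 difference 1.35 ± 0.34, adjusted p = 0.0322) and 2.84-fold at 24h (1.51 ± 0.34, adjusted p = 0.00444). The call at 4h was lost without replicate 1 or 2 of 0h or replicate 1 or 3 of 4h (log2 differences from 1.14 to 1.67 over 15 fits), and that at 24h was kept in all 15. With the inhibitor the means were 53.3 at 4h and 51.6 at 24h, and the libraries overlapped those with DMSO (adjusted p = 1 at 4h and 0.434 at 24h, with the block 0.358 and 0.0257).

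Closer to Tgfbr1, a region with its summit 1.3 kb upstream (chr4:47364163-47365849) was counted as promoter because summits of some libraries lay within 1000 bp of the start site. It had 76.7, 53.9 and 66.6 fragments at 0h and 137, 122 and 148 at 4h, a rise of 2.08-fold (adjusted p = 0.014). At 24h it had 137, 71.7 and 150, and the second library overlapped 0h (log2 difference 0.81 ± 0.23, adjusted p = 0.0214). Both calls were lost without 0h replicate 2 and without replicate 1 or 3 of the treated group, with log2 differences of at least 0.92 at 4h and 0.61 at 24h. With regions merged within 1000 bp the 4h call was lost too (log2 difference 0.60, adjusted p = 0.107). So was that at 24h (log2 difference 0.38, adjusted p = 0.203). The region 2.5 kb upstream had a peak of 34.4 fragments in a single 0h library and peaks in all 12 TGF-β libraries, with a mean of 117 at 4h, 101 at 24h, 105 with the inhibitor at 4h and 119 with it at 24h. The promoter region 0.6 kb downstream, over the start of the gene, had means of 103 at 0h, 143 after 4h and 112 after 24h, and passed at 4h with the block only (log2 difference 0.49, adjusted p = 0.00751, without the block 0.301). The intergenic region 22 kb upstream had no peak at 0h and 49.3, 33.5 and 76.0 fragments at 24h. It belonged to a run of regions less than 1000 bp apart that included the one 24.8 kb upstream, where all 15 libraries had peaks. The intron region 7.5 kb downstream had 14.8 to 22.2 at 0h and no peak at 24h. Distal peaks of Tgfbr1 numbered 4, 2 and 4 at 0h, 6, 6 and 5 at 4h and 5, 8 and 6 at 24h.

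Of the Smads, Smad2 and Smad4 carried little distal acetylation and their promoters passed in no comparison without the block. The Smad2 promoter region 0.1 kb upstream had a mean of 117 before TGF-β, 109 at 4h and 118 at 24h. The Smad4 promoter region 0.3 kb upstream had means of 128, 111 and 115, and libraries at 93.0, 75.7 and 89.5 fragments with the inhibitor at 24h. These 3 were below the 110, 126 and 109 with DMSO, a log2 difference of -0.42 that passed with the block (adjusted p = 0.0116) and not without (0.11). A distal Smad2 region 40.4 kb upstream had peaks in all 3 libraries at 0h (mean of 19.5 fragments) and in none at 24h. The distal Smad2 region 80.4 kb upstream moved the other way, from 17.7, 19.1 and 23.3 at 0h to 29.9, 24.3 and 40.6 at 24h. That rise passed with the block (adjusted p = 0.0202) and not without (0.0718).

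Smad3 (ENSMUSG00000032402, chr9:63494574-63605801, minus strand) had the largest mean number of distal peaks in every condition, and its regions moved in both directions. The intron region 56.2 kb downstream (chr9:63549188-63550096) had no peak in the 0h libraries and peaks in all 12 others. Its pileup was 98.4, 87.0 and 131 at 4h, 91.6, 84.4 and 120 at 24h, 95.4, 68.9 and 102 with the inhibitor at 4h and 79.6, 58.7 and 102 with it at 24h. The ranges with and without inhibitor overlapped at both times. A neighbour 57.2 kb downstream had peaks in 10 libraries and in none at 0h. It lay less than 1000 bp from the region at 56.2 kb and from that at 58.7 kb. The latter had peaks in all 15 libraries, with a mean of 95.4 fragments at 0h. With regions merged within 1000 bp, no member was gained at 4h in the sense of all libraries against none. An intergenic region 81.3 kb upstream had no peak at 0h and 36.1, 16.2 and 36.5 fragments at 24h. The intron region 104.4 kb downstream had 28.8, 45.5 and 41.1 at 0h and no peak at 4h.

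Other Smad3 intron regions were lower with the inhibitor. The region 51.7 kb downstream (chr9:63553709-63555283) had 79.2, 106 and 127 fragments at 24h and 45.4, 37.8 and 47.9 with the inhibitor, a fall of 2.35-fold (log2 difference -1.23 ± 0.24, adjusted p = 0.00414). The call was kept in all 15 fits that left out a library. At 4h it had 98.4, 115 and 116 with DMSO and 55.1, 67.6 and 70.9 with the inhibitor, which did not overlap (adjusted p = 0.345, with the block 0.00261). At 0h it had 53.9, 80.2 and 103, so that the inhibitor libraries at 24h were below all 0h libraries as well. The region 79.5 kb downstream had a mean of 98.9 at 24h and 61.7 with the inhibitor (log2 difference -0.70 ± 0.21, adjusted p = 0.0478), a call that 11 of 15 fits without a library did not make (log2 differences from -0.88 to -0.50) and that held without replicate 3 of 0h, 4h or ERKi 4h or without ERKi 24h replicate 2. Its neighbours at 80.5 and 79.0 kb had peaks in all 3 libraries at 24h and in none with the inhibitor. Both lay less than 1000 bp from the regions at 80.0 and 79.5 kb, which had peaks in all 15 libraries. With regions merged within 1000 bp, 0 members were lost with the inhibitor at 24h. The region 41.2 kb downstream had 67.4, 58.0 and 64.2 fragments at 4h and no peak with the inhibitor at either time. Its neighbour 41.9 kb downstream, less than 1000 bp away, had 59.4, 54.4 and 66.1 at 4h. With the inhibitor that neighbour had 39.4, 31.3 and 48.3 at 4h and no peak at 24h. The region 2.4 kb downstream had no peak at 24h and 68.5, 84.8 and 66.8 with the inhibitor. It lay less than 1000 bp from the promoter region 0.5 kb downstream, which had peaks in all 15 libraries. The intron region 10.9 kb downstream, the highest distal region of Smad3 by the mean over all 15 libraries, had means of 113 at 0h, 156 after 4h and 137 after 24h, and of 169 with the inhibitor at 24h. Without the inhibitor the region 35.5 kb downstream had higher means, of 155, 165 and 153, and 109 with the inhibitor at 24h. Neither passed in any comparison without the block.

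The background against which the peaks were called moved with the peaks. Over all 26934 regions, the log2 differences of recovered background and of pileup had a Pearson r of 0.892 for 4h against 0h, 0.911 for 24h against 0h, 0.822 for the inhibitor at 4h and 0.872 at 24h. These are correlations across regions, which are not independent replicates, and both quantities come from the same entries. At the Tgfbr2 region 44.2 kb upstream the background was 47.1 ± 8.99 (SD, n = 3) at 0h and 19.8 ± 4.59 at 24h. At the Tgfbr3 intron region at 20.8 kb it was 28.3 ± 5.27 at 0h, 6.08 ± 1.2 at 24h and 15.4 ± 3.65 with the inhibitor at 24h. At the Tgfbr1 region 24.8 kb upstream it was 5.47 ± 1.05 at 0h and 19.9 ± 8.03 at 24h. At each of these regions background and summit pileup changed in the same direction.

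By fold enrichment, which divides pileup by this background, most of these calls were lost. The Tgfbr3 intron region had a mean fold enrichment of 3.63 at 0h and 4.61 at 24h, although its pileup fell 3.4-fold. The Tgfbr3 region 6.1 kb upstream fell by this measure too, from 9.04 to 4.62, and was 8.19 with the inhibitor at 24h. Of the 9 members that passed in pileup at 24h, only this region passed in the same direction by fold enrichment (log2 difference -0.96, adjusted p = 0.00152). Its background was 8.2 ± 0.827 (SD, n = 3) at 0h and 3.08 ± 0.248 at 24h. The 24h value was the same at the Tgfbr3 promoter, at Tgfbr3 122.2 kb downstream and at Smad2 80.4 kb upstream. Whether it is a floor below which the background could not fall was not tested.

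**Figure D5:**
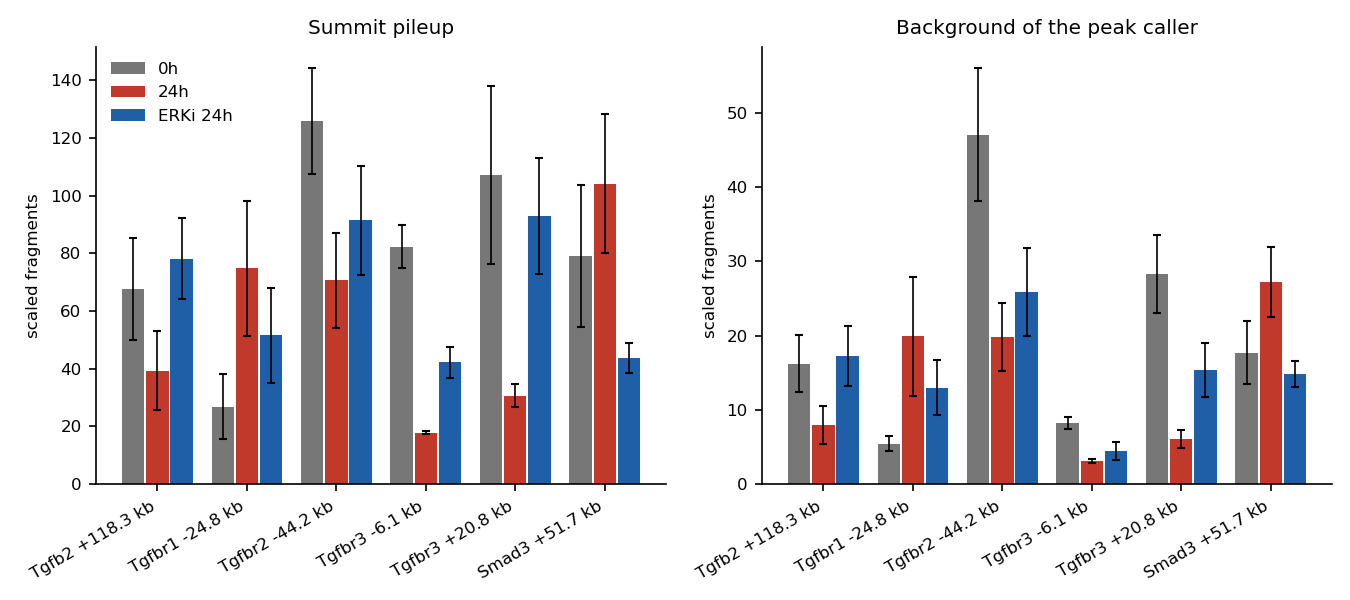
Mean scaled summit pileup (left) and mean scaled background of the peak caller at the same summit (right), both in fragments on the y axis, for 6 regions (x axis) at 0h, 24h and ERKi 24h; bars are means and whiskers SD (n = 3). Both fall at 24h near Tgfb2, Tgfbr2 and Tgfbr3, with a background of 28.3 at 0h and 6.08 at 24h at the Tgfbr3 intron region, and both rise near Tgfbr1.

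The distal regions were searched on both strands for 8 motifs in 300 bases around the summit, as a description. TGANTCA (AP-1) was in 20 of 133 member regions (15%) and in 11.4% of all 73355 distal regions. GGAAGT (ETS) was in 21.1% against 20.3%, TGTGGT (RUNX) in 27.8% against 22%, and TGTTTAC (FOX) in 5.26% against 4.79%. CAGACA, a Smad-binding element, was in 26.3% against 29.9%, and the palindrome GTCTAGAC in none against 0.363%. ACGTG (HIF) was in 15% against 12.9% and GGAATG (TEAD) in 14.3% against 17.3%. These motifs do not contain one another, and the median GC content of the member windows was 48.3%, against 47% for all distal regions.

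For each gene the promoters with the most similar pileup over the 15 libraries were found among 10171 genes. For Tgfbr2 they were Sema3c (Pearson r = 0.889) and Btbd8 (0.872), for Tgfbr1 Adcy9 (0.874) and Lemd2 (0.861), and for Tgfbr3 1190002N15Rik (0.859) and BC029214 (0.83). For Smad3 they were Ssh1 (0.843) and Crtc3 (0.805), for Smad2 Bcl9 (0.841) and Ltbp4 (0.839), and for Smad4 Bub3 (0.871) and Slc25a35 (0.839). For Tgfb1 they were Mtmr9 (0.765) and Pvrl3 (0.735), for Tgfb2 Zfp429 (0.883) and Ptpre (0.869), and for Tgfb3 Tbc1d10a (0.952) and Parl (0.95). The libraries share replicate numbers and conditions, and these values are a description.

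Other genes of the pathway were taken from a list of 40, of which 34 had a tested region, 146 regions in all. At 4h 22 regions of 11 genes were higher (15.1%) and none lower, against 3.47% and 0.167% of all regions. At 24h 43 regions of 17 genes were higher (29.5%) and 6 lower (4.11%), against 10.7% and 6.55%. The other regions passed in neither direction. The largest rises at 24h were near Pmepa1, an inhibitor of Smad signalling (log2 difference 3.48), Eng, a co-receptor related to Tgfbr3 (2.83), and Itgav, an integrin subunit that activates latent TGF-β (2.71). With the inhibitor 1 region was lower at 4h (0.685%, against 0.223% of all regions). At 24h 8 were lower (5.48%) and 2 higher (1.37%), near the 4.14% and 2.99% of all regions. The region of Smad7, an inhibitory Smad, was lower at 4h (log2 difference -1.08, adjusted p = 0.0426) and 24h (-1.44, adjusted p = 0.000728), and a region of Ltbp1, a latent TGF-β binding protein, was lower at 24h (-1.52, adjusted p = 0.00084).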

How the data were processed

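H3K27ac ChIP-seq peak lists of 15 libraries were analysed. RNA-seq and input libraries were not analysed here. Per the methods of the study, the authors used bowtie for alignment to mm9 and ran MACS2 with its defaults on every library by itself; the control used at that step is not given in the sources used here. The deposited lists give the fold enrichment of the summit over the local background, the −log10 p and −log10 q of the summit, and a score that is 10 times −log10 q, which was not used. None of these is scaled between libraries.

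Summit pileup and background, which are whole fragments and their local expectation, were solved from the deposited fold enrichment and −log10 p. In all but 25 of 893719 peaks the recovered −log10 p was within 0.005 of that deposited. Overlapping peaks were merged into 89050 regions, and a region took the highest pileup of each library. Start sites of protein-coding transcripts came from the mm9 (NCBIM37) GENCODE annotation, with 22372 genes and 46028 start sites. Log2 pileup of the 26934 regions with a peak in every library was scaled by median ratios and fitted over all 15 libraries with limma 3.58.1 (R 4.3.3, trended prior variance), with Benjamini-Hochberg adjustment over these regions and a threshold of 0.05. Every adjusted p of pileup is from this fit unless the replicate block or another setting is named. Peak numbers were compared by two-sided exact permutation tests. Sequences were read from the mm9 genome, and the sequence of a further region is not reported here.

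Replicate numbers were taken to pair libraries: deviations from the condition means correlated above 0.1 in 30 of 30 pairs of libraries with the same number (mean r = 0.581) and in 5 of 60 with different numbers (mean r = -0.284). The deviations of the 3 libraries of a condition cancel, so the correlations of both kinds depend on each other and are not separate evidence.

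The genes, lists and alternatives were chosen with earlier results of these data known. Regions were named if highest at a gene, if called in all libraries of a condition and none of another (at most 3 per gene and comparison), or if past the threshold (at most 4 per gene); further regions, among them those passing only with the replicate block, Tgfbr3 at 201.4 kb and Smad3 at 57.2 kb, were chosen after their values were seen. Other pathway genes were named as the 3 largest differences past the threshold in each comparison, and similar promoters as the 2 highest correlations.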

Additional observations from a re-analysis of the deposited data

How the results depend on the processing

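The numbers of members past the threshold were 3 (4h against 0h), 9 (24h against 0h), 0 (ERKi 4h against 4h) and 5 (ERKi 24h against 24h). With the replicate block they were 13, 18, 4 and 21. Leaving out each library gave 1 to 3, 6 to 11, 0 to 0 and 3 to 6. The first count was 1 without 0h replicate 2, 4h replicate 1 or 4h replicate 3, and the last was 3 without 24h replicate 1 or ERKi 24h replicate 3. Without scaling, counts were 0 at 4h, 4 at 24h and 2 for the inhibitor at 24h, which left Tgfbr1 24.8 kb upstream and the 3 Tgfbr3 regions at 24h and a pair of Tgfbr3 regions with the inhibitor. From −log10 p they were 1, 4 and 3, with peaks of −log10 q of at least 10 they were 1, 2 and 0, and with missing peaks set to the lowest pileup of their list they were 8, 26 and 10. Fitting the 6 libraries alone gave 3 for the inhibitor at 24h.

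From fold enrichment the counts were 0, 3 and 2, and 12 of the 17 called differences changed sign, none of them past the threshold. The log2 differences were then 0.086 (24h) and -0.075 (inhibitor) for Tgfb2 at 118.3 kb, -0.076 (4h) and -0.154 (24h) for Tgfbr1 24.8 kb upstream, and -0.162 and -0.182 for Tgfbr1 1.3 kb upstream. At 24h they were 0.138 for the Tgfbr2 promoter, 0.343 and 0.386 for Tgfbr2 43.2 and 44.2 kb upstream, and 0.332 and 0.267 for Tgfbr3 at 20.8 and 17.1 kb, and with the inhibitor 0.136 for Smad3 at 79.5 kb. This measure divides by a background that moved with the pileup.

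Genes whose distal peak numbers did not overlap numbered 1, 3, 1 and 3. There were 2 at 4h with the promoter ending 100 bp downstream or with start sites of all transcripts, 0 for the inhibitor at 4h with −log10 q of at least 10 or within 50 kb, and 1 at 24h within 50 kb. For 24h against 0h there were 2 with the promoter within 2500 bp, both with fewer peaks. Peaks in all libraries against none numbered 3, 14, 1 and 6. With −log10 q of at least 10 there were 4 at 24h, 0 for the inhibitor at 4h and 2 at 24h, and with regions merged within 1000 bp there were 1, 7, 0 and 2. The 1 at 4h after merging was a loss. The 2 for the inhibitor at 24h were gains under both settings, so that 0 losses were left there. The cause of these shifts was not tested. Read totals are unknown, so a missing peak is not a measured absence.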
